A study of Saccharomyces cerevisiae with 4 samples.

Results

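The genes described here encode enzymes and enzyme subunits that modify transfer RNA (tRNA) in the budding yeast Saccharomyces cerevisiae. They were chosen by name: a gene was included if its annotated symbol was TRM, PUS, DUS, TAD, TYW, ELP or NCS followed by a number. The pattern found 36 genes of the 5449 tested, each with 1 probe set, and found the same 36 in current RefSeq symbols. Total RNA of 4 log-phase cultures grown at 30 °C in drop-out medium was measured on 4 one-colour Affymetrix arrays, 2 of dis3E729K cells and 2 of wild-type cells. The labels give the BY4741 laboratory background for all cultures and a URA3 marker next to the DIS3 gene in mutant and wild type alike. The mutant is a missense allele of DIS3, the catalytic ribonuclease of the RNA exosome. How many clones stand behind the cultures is not stated in the labels. DIS3 itself read 11.49 and 11.12 in dis3E729K and 11.65 and 11.82 in wild type, a log2 change of -0.43 ± 0.18 (SE) that did not pass; its level does not check a missense allele.

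A tRNA leaves the polymerase with the usual bases and is then modified at many positions by enzymes that each act at particular sites. Modifications in the body of the molecule, such as dihydrouridine, pseudouridine and methylated guanosines, help it to fold and protect it from decay, and those in the anticodon loop set how codons are read. In yeast, nuclear precursors that lack certain modifications are given a short poly(A) tail by the TRAMP complex and are degraded by the exosome, of which DIS3 is a nuclease. The arrays measured the messenger RNA of the enzymes and not the modifications or the tRNAs. In such bulk RNA, fewer cells of a kind and less RNA per cell cannot be told apart.

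The arrays did not all match their labels. BY4741 is an a-type strain that lacks MET17. All 7 genes expressed in a cells read higher on the replicate 1 arrays than on the replicate 2 arrays: STE2, the alpha-factor receptor, read 12.58 in dis3E729K replicate 1 and 12.26 in wild type replicate 1, against 6.81 in dis3E729K replicate 2 and 7.01 in wild type replicate 2. All 3 measured genes of alpha cells went the other way, with HMLALPHA1 at 10.74 and 10.56 on the replicate 2 arrays of mutant and wild type and 3.51 and 3.53 on the replicate 1 arrays. MET17 read 3.38 and 3.47 in dis3E729K, and 3.22 and 9.55 in wild type replicates 1 and 2, where signal below 4.06 counted as background. Changes are therefore also given within the replicate 1 pair and within the replicate 2 pair. The replicate 2 arrays were alike in the mating type genes but not in MET17, so that pair is not fully matched. Control probe sets for ribosomal RNA, 17 in all, read a median of 0.42 higher in the mutant with no overlap between genotypes. Among 8 control genes of yeast with probe sets at each end, the 5′ minus 3′ signal was above wild type in the mutant without overlap for 6, and the difference had a median of 0.20 and reached 0.85. The part of either in the results below was not tested.

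Most tRNA modification genes read lower in dis3E729K than in wild type. Of the 36, 5 were lower by 1 log2 unit or more, as were 343 of all 5449 genes. The log2 change was below zero for 33 of the 36 genes, 91.7% against 55.3% of all genes. The median was -0.60, where all genes tested had a median of -0.073. In limma's test 6 genes fell and 0 rose at a Benjamini-Hochberg adjusted p under 0.05: DUS1, NCS2, TRM11, TRM5, PUS1 and TRM2. That is 16.7% of the 36, where 8.15% of all genes fell and 7.71% rose. At an unadjusted p under 0.05, 19 were lower and 0 higher, 52.8% of the 36 against 22.6% of all genes. Both mutant arrays lay below both wild-type arrays for 29 genes, or 80.6%, against 41.8% of all genes. They lay above for 2, PUS5 and PUS6, against 32.3% of all genes. Of the 36 changes, 25 lay in the lowest 25% of the changes of all genes and 1, that of PUS5, in the highest 25%. An exact permutation test of 2 arrays against 2 cannot give a two-sided p below 0.333, so the calls rest on the spread that limma pools across genes.

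Leaving out an array changed the number of calls over all genes as well as among the 36. Without dis3E729K replicate 2, 0 of the 36 and 0 of all 5449 genes fell; at an unadjusted p under 0.05, 12 of the 36 were lower, 33.3% against 15.9% of all genes. Without wild type replicate 1, 0 of the 36 and 85 of all genes (1.56%) fell, with 16 of the 36 lower at an unadjusted p under 0.05, 44.4% against 15.5%. Without wild type replicate 2, 0 of the 36 and 2 of all genes (0.0367%) fell, with 8 of the 36 lower at an unadjusted p under 0.05, 22.2% against 12% of all genes. Without dis3E729K replicate 1, 7 of the 36 fell, 19.4% against 6.44% of all genes. Of these, 4 were among the 6 named; TRM5 and TRM2 no longer passed, and TRM1, TRM3 and TRM44 did. With the replicate number as a block only DUS1 fell, 2.78% of the 36 against 2.64% of all genes, with 18 of the 36 lower at an unadjusted p under 0.05, where 17.4% of all genes were. Without limma's moderation of the variance 0 of the 36 and 0.0367% of all genes fell, and 7 of the 36 were lower at an unadjusted p under 0.05, 19.4% against 14.3%. At an adjusted p under 0.10, 18 of the 36 fell, where 19.6% of all genes did.

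**Figure D1:**
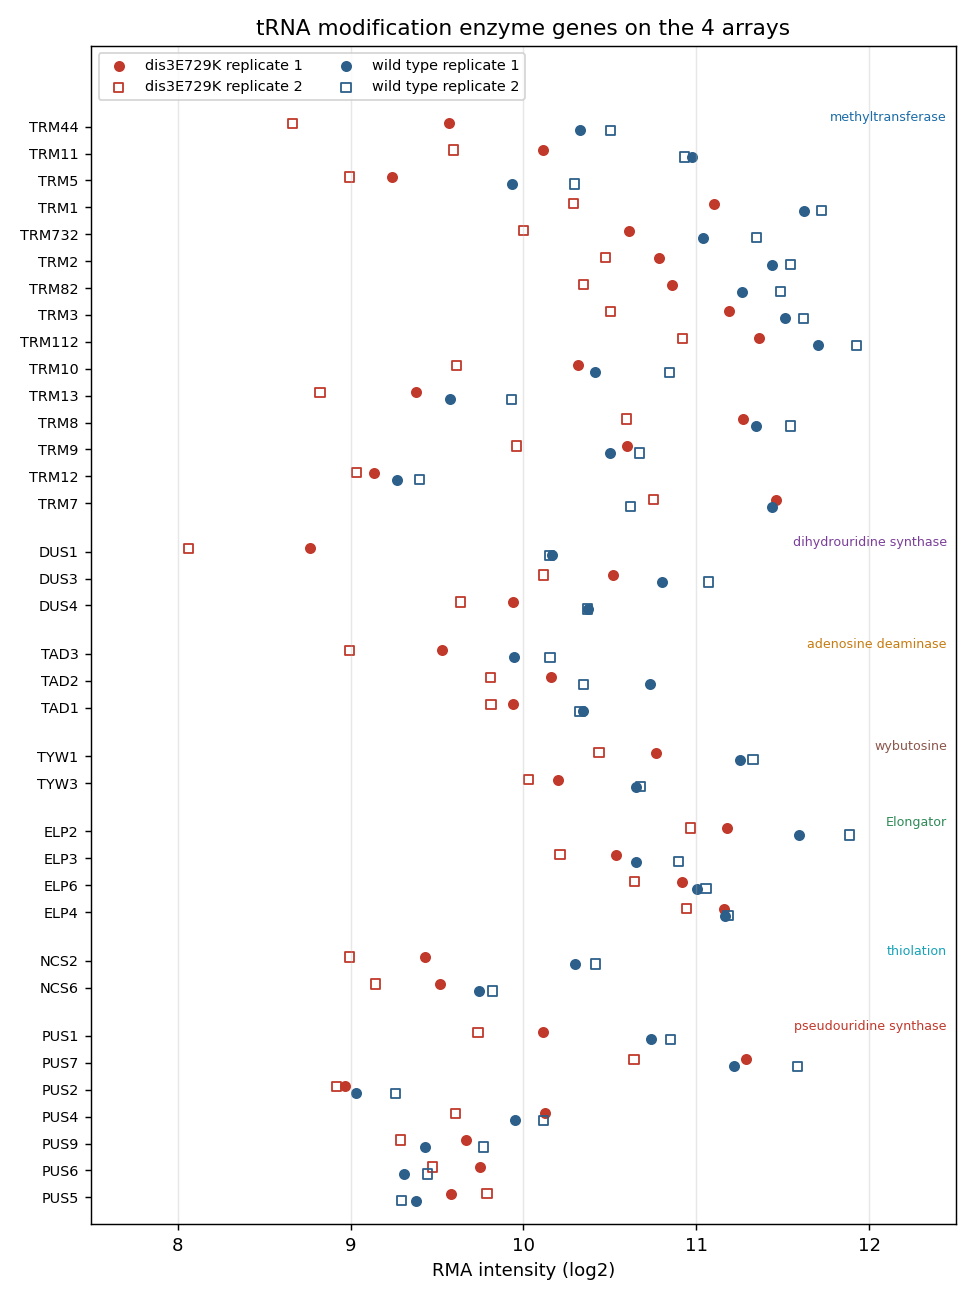
RMA intensity (log2, horizontal) of the 36 tRNA modification genes on each array, grouped by enzyme class; red symbols are dis3E729K and blue symbols wild type, filled circles replicate 1 and open squares replicate 2. For 29 genes both red symbols lie left of both blue symbols, and the open red square, dis3E729K replicate 2, is left of the filled red circle for 35; intensities of different genes are not comparable.

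The largest change among the 36 was that of DUS1 (YML080W), a dihydrouridine synthase of the D loop. Its RMA intensity (log2) was 8.77 and 8.06 in dis3E729K and 10.17 and 10.15 in wild type. The groups were apart by 1.38 between their nearest arrays, and both mutant arrays were low, replicate 2 more so. DUS1 fell by 1.74 ± 0.27 on the log2 scale (SE), a 3.34-fold difference (adjusted p = 0.0368; 0.0416 with the replicate block). DUS4 (YLR405W), which acts at a neighbouring site of the D loop, read 9.94 and 9.64 in dis3E729K and 10.37 on both wild-type arrays. Its groups did not overlap, but the change of -0.59 ± 0.15 did not pass (adjusted p = 0.0689). DUS3, the enzyme for dihydrouridine in the variable loop, had a change of -0.62 ± 0.20, also without passing. SMM1, the dihydrouridine synthase that the name pattern does not match, had a change of -0.64 ± 0.25 (adjusted p = 0.138). Both mutant arrays lay below both wild-type arrays for all 4 genes, where they did for 41.8% of all genes. DUS1 alone passed, where 8.15% of all genes fell.

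The class of methyltransferases and their partner subunits was taken as the 15 genes named TRM, with TRM12 of the wybutosine pathway included by its name. Of the 15, 3 fell, TRM11, TRM5 and TRM2, where 8.15% of all genes fell, and the median change was -0.72. With the replicate block 0 of the 15 passed limma's test, where 2.64% of all genes fell. TRM11 (YOL124C) methylates a guanosine at the base of the D stem and read 10.11 and 9.60 in dis3E729K, against 10.97 and 10.93 in wild type. The mutant arrays were both lower, by at least 0.82. It fell by 1.10 ± 0.21 (2.14-fold, adjusted p = 0.0450). TRM5 (YHR070W), which methylates the guanosine that follows the anticodon and so keeps the reading frame, read 9.24 and 8.99 in dis3E729K, against 9.94 and 10.30 in wild type. Here the wild-type arrays were farther apart than the mutant ones. TRM5 fell by 1.00 ± 0.19 (adjusted p = 0.0443). TRM2 (YKR056W), which makes the methylated uridine of the T loop, read 10.78 and 10.47 in dis3E729K and 11.44 and 11.54 in wild type, with no overlap. It fell by 0.86 ± 0.16 (1.82-fold, adjusted p = 0.0436). With the replicate block the adjusted p was 0.0591 for TRM11, 0.0730 for TRM5 and 0.0766 for TRM2.

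TRM44 (YPL030W), the ribose methyltransferase of serine tRNA, had the widest change of the class without passing. It read 9.57 and 8.66 in dis3E729K and 10.33 and 10.50 in wild type. Both mutant arrays were low, and the mutant arrays lay 0.91 apart, the widest spread between mutant arrays of the 36 genes. The change of -1.30 ± 0.34 had an adjusted p of 0.0679. TRM1, which dimethylates a guanosine between the D and anticodon stems, also had mutant arrays far apart, with 11.10 and 10.29 in dis3E729K and 11.62 and 11.73 in wild type and a change of -0.98 ± 0.31 (adjusted p = 0.0917). TRM3, a ribose methyltransferase of the D loop, had a change of -0.72 ± 0.26, TRM10, a guanosine methyltransferase, one of -0.67 ± 0.31, and TRM13, a ribose methyltransferase of the acceptor stem, one of -0.65 ± 0.26. None of these passed. TRM13 lies next to TRM11 on the chromosome in the RefSeq table, and was lower on both mutant arrays as TRM11 was.

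TRM7 was the only methyltransferase gene above zero, at 0.081 ± 0.39. It read 11.46 and 10.76 in dis3E729K and 11.44 and 10.62 in wild type. Both replicate 2 arrays were lower than both replicate 1 arrays, so that TRM7 split by replicate number and not by genotype, as no other of the 36 genes did. Among all genes 625 of 5449 split in that way. Its change was -0.27 without dis3E729K replicate 1 and -0.33 without wild type replicate 2. TRM12, of the wybutosine pathway, had a change of -0.25 ± 0.13, and TRM9, which finishes a side chain on the wobble uridine, one of -0.31 ± 0.26.

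**Figure D2:**
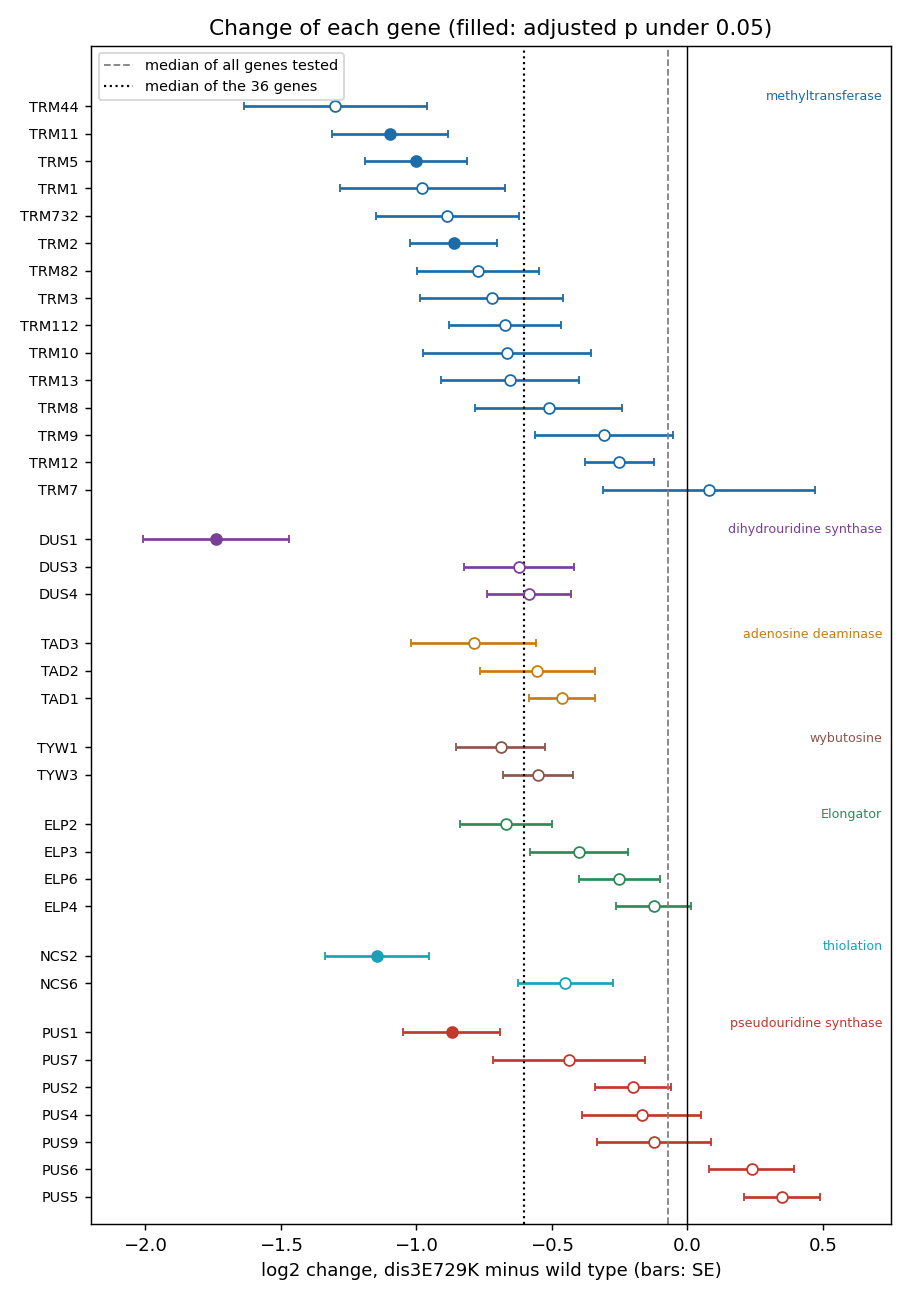
log2 change, dis3E729K minus wild type (horizontal, bars are the SE of limma's fit), of the 36 genes by enzyme class; filled points passed at an adjusted p under 0.05, the dotted line is the median of the 36 genes and the dashed line that of all genes tested. Filled points lie at -1.74 to -0.86, and the points of the pseudouridine synthases other than PUS1 lie between -0.44 and 0.35.

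The subunits of a shared complex can be set side by side, each by its own change. TRM112, a small protein that activates TRM9 and TRM11 among others, had a change of -0.67 ± 0.21 (adjusted p = 0.0895), between TRM11 at -1.10 and TRM9 at -0.31. TRM8, the catalytic subunit of the guanosine methyltransferase of the variable loop, had a change of -0.51 ± 0.27, and TRM82, its partner, one of -0.77 ± 0.23. TRM732 and RTT10 encode the subunits that direct TRM7 to different positions of the anticodon loop; their changes were -0.89 ± 0.26 and -1.12 ± 0.30, against 0.081 ± 0.39 for TRM7. Differences between subunits were not tested.

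The adenosine deaminases make inosine. TAD1 (YGL243W), which acts beside the anticodon of alanine tRNA, read 9.94 and 9.81 in dis3E729K and 10.35 and 10.33 in wild type. The arrays of each genotype lay close together and the genotypes apart, by a change of -0.46 ± 0.12 that did not pass (adjusted p = 0.0698). TAD2 and TAD3 form the deaminase of the wobble position and had changes of -0.55 ± 0.21 and -0.79 ± 0.23. The 3 genes were lower on both mutant arrays, as 41.8% of all genes were, and 0 of them passed limma's test. At an unadjusted p under 0.05, 2 were lower, where 22.6% of all genes were.

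Wybutosine, a tricyclic guanosine beside the anticodon of phenylalanine tRNA, is built by TRM5, TYW1, TRM12, TYW3 and PPM2 in that order. TYW1 (YPL207W), which closes the added ring, read 10.77 and 10.44 in dis3E729K and 11.25 and 11.33 in wild type. TYW3 (YGL050W), a later methyltransferase, read 10.20 and 10.03 in dis3E729K and 10.65 and 10.68 in wild type. Neither overlapped, and neither passed: the changes were -0.69 ± 0.16 (adjusted p = 0.0586) for TYW1 and -0.55 ± 0.13 (adjusted p = 0.0576) for TYW3. PPM2, which completes the base and is not matched by the name pattern, read 6.61 and 5.70 in dis3E729K and 7.78 and 7.99 in wild type. It fell by 1.73 ± 0.35 (3.31-fold, adjusted p = 0.0466; 0.0562 with the replicate block). All 5 genes of the pathway were therefore lower on both mutant arrays, TRM12 by only 0.14, where 41.8% of all genes were. TRM5 and PPM2 were past the threshold, where 8.15% of all genes fell. Neither passed with the replicate block, where 2.64% of all genes fell.

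Elongator and a thiolation pathway modify the uridine at the wobble position: Elongator adds a side chain, and the thiolation enzymes replace an oxygen with sulfur. NCS2 (YNL119W), which with NCS6 transfers the sulfur, read 9.43 and 8.99 in dis3E729K and 10.30 and 10.42 in wild type. It fell by 1.15 ± 0.19 (2.21-fold, adjusted p = 0.0407; 0.0599 with the replicate block). NCS6 had a change of -0.45 ± 0.17 and did not pass. URM1, the ubiquitin-like protein that carries the sulfur, read 10.35 and 9.57 in dis3E729K and 11.26 and 11.49 in wild type, and its change of -1.41 ± 0.30 lay just short of the threshold (adjusted p = 0.0511). UBA4, which activates URM1, had a change of 0.091 ± 0.125, and the sulfur donors TUM1 and NFS1 had changes of -0.14 ± 0.18 and -0.096 ± 0.131. Of these 6 genes only NCS2 passed, where 8.15% of all genes fell.

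Of the 4 Elongator genes matched by name 0 passed limma's test. At an unadjusted p under 0.05 only 1, ELP2, was lower, where 22.6% of all genes were. ELP2 (YGR200C), a scaffold subunit, read 11.18 and 10.97 in dis3E729K and 11.60 and 11.89 in wild type, a change of -0.67 ± 0.17 (adjusted p = 0.0653). ELP3, the catalytic subunit, had a change of -0.40 ± 0.18. The ring subunits ELP4, ELP6 and IKI1 had changes of -0.12 ± 0.14, -0.25 ± 0.15 and -0.25 ± 0.18. Both mutant arrays lay below both wild-type arrays for all 5 genes, by as little as 0.006 for ELP4, and for 41.8% of all genes. SAP185, a partner of the phosphatase SIT4 that Elongator function needs, fell by 1.74 ± 0.26 (8.92 and 8.31 in dis3E729K, 10.22 and 10.48 in wild type; adjusted p = 0.0364). SAP190, its paralogue, had a change of -0.29 ± 0.14 and SIT4 one of 0.21 ± 0.13. KTI11, another gene needed for Elongator function, had a change of -0.87 ± 0.31 and did not pass (adjusted p = 0.117). From the same list, KTI12 had a change of -0.325 ± 0.224, ATS1 one of -0.026 ± 0.158 and HRR25 one of 0.139 ± 0.122. None of these passed. Of the 12 measured genes of this list for wobble uridine modification only SAP185 fell, 8.33% against 8.15% of all genes. Their median change was -0.195.

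**Figure D3:**
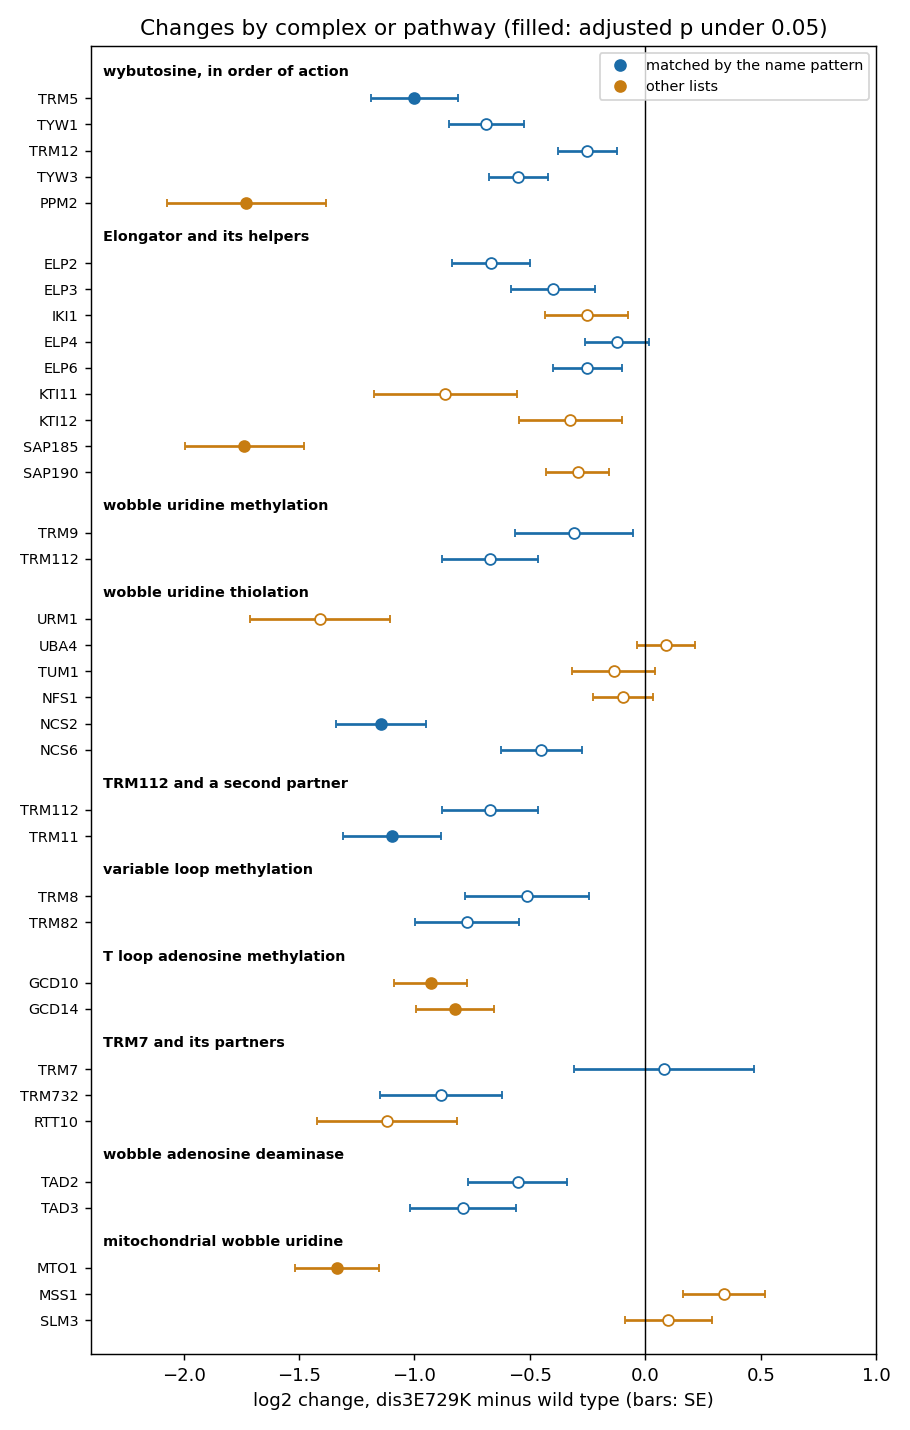
log2 change, dis3E729K minus wild type (bars are SE), of genes set out by complex or pathway; blue points were matched by the name pattern, orange points come from the other lists, and filled points passed at an adjusted p under 0.05. PPM2, SAP185, MTO1, GCD10 and GCD14 are the filled orange points, between -1.74 and -0.82, and TRM7, UBA4, MSS1 and SLM3 lie above zero.

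The pseudouridine synthases matched by name had changes from -0.87 to 0.35. Of 7 genes, PUS1 fell, where 8.15% of all genes fell. The median change was -0.17, against -0.67 for the other 29 modification genes, and that difference was not tested. DEG1 and RIB2, which encode tRNA pseudouridine synthases under other names, had changes of -0.60 ± 0.27 and -0.43 ± 0.12 without passing, with both mutant arrays below both wild-type arrays. The median over the 9 genes was -0.20. PUS1 (YPL212C), which modifies many sites in tRNA, read 10.11 and 9.74 in dis3E729K and 10.74 and 10.85 in wild type, with no overlap. It fell by 0.87 ± 0.18 (1.83-fold, adjusted p = 0.0477; 0.0804 with the replicate block and 0.0502 after quantile normalization over the tested genes). PUS2, a paralogue that acts on mitochondrial tRNA, read 8.97 and 8.92 in dis3E729K and 9.03 and 9.26 in wild type, a change of -0.20 ± 0.14. PUS7, which also modifies other RNAs, had a change of -0.44 ± 0.28, with overlapping groups. PUS4, the enzyme of the T loop next to the site of TRM2, read 10.13 and 9.61 in dis3E729K and 9.95 and 10.12 in wild type, so the mutant arrays lay on either side of both wild-type arrays. Its change was -0.17 ± 0.22, and 0.091 without dis3E729K replicate 2.

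PUS9, an enzyme of mitochondrial tRNA, likewise overlapped, at 9.67 and 9.29 in dis3E729K and 9.43 and 9.77 in wild type. PUS6, which modifies cytoplasmic and mitochondrial tRNA, read 9.75 and 9.47 in dis3E729K and 9.31 and 9.44 in wild type, a change of 0.24 ± 0.16. PUS5 had the highest change of the 36, with 9.58 and 9.79 in dis3E729K and 9.38 and 9.29 in wild type, 0.35 ± 0.14 (adjusted p = 0.139). Neither passed, although both mutant arrays were higher for each. PUS5 is known for a pseudouridine of mitochondrial ribosomal RNA, so its name matches the pattern although its substrate is not a tRNA. Without it the median change of the other 35 genes was -0.62.

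**Figure D4:**
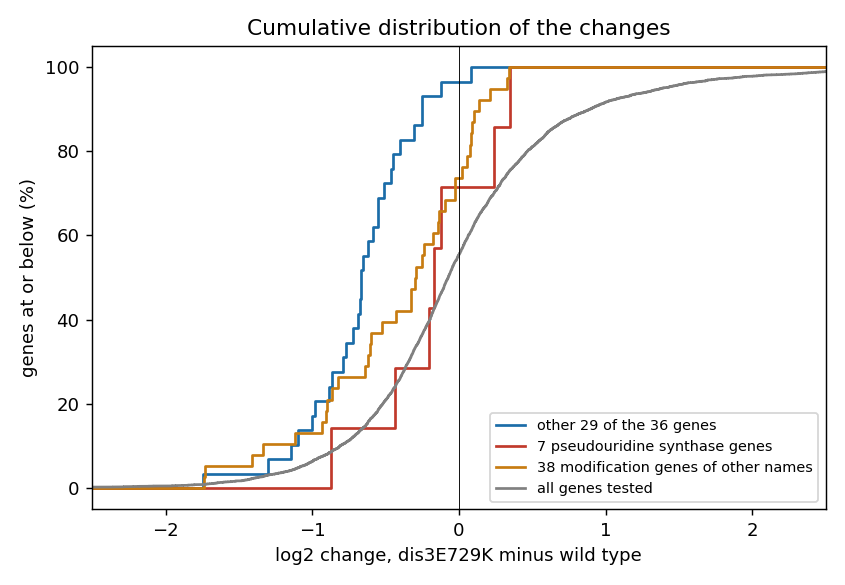
Cumulative share of genes (%, vertical) at or below each log2 change, dis3E729K minus wild type (horizontal), for the 29 modification genes other than pseudouridine synthases, the 7 pseudouridine synthase genes, 38 modification genes of other names and all 5449 genes tested. The line of the 29 genes lies left of the others over most of its course, with medians of -0.67, -0.17, -0.30 and -0.073 in that order; the axis ends at -2.5 and 2.5.

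Changes lay lower between the replicate 2 arrays than between the replicate 1 arrays. The median change of the 36 genes was -0.33 in the replicate 1 pair and -0.93 in the replicate 2 pair, with 29 and 33 genes below zero. The medians of all genes were -0.041 and -0.106, with 2930 and 3068 of 5449 below zero. For 33 of the 36 genes the change was lower in the replicate 2 pair, as it was for 3112 of all 5449 genes. Both genotypes contributed: dis3E729K replicate 2 was below dis3E729K replicate 1 for 35 of the 36 genes (all but PUS5), with a median difference of -0.39, and wild type replicate 2 was above wild type replicate 1 for 29, with a median difference of 0.13. Among all genes these shares were 54.8% and 59.2%, against 97.2% and 80.6% of the 36. The order of the genes was alike in the pairs, with Pearson's r = 0.78 and Spearman's rho = 0.72 across the 36 genes; the arrays were normalized together, and genes are not independent replicates. Over all genes r was 0.72. The mating type genes split the arrays by the same numbers. MET17 differed within the replicate 2 pair, at 3.47 in dis3E729K and 9.55 in wild type. The part of either in these differences was not tested.

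**Figure D5:**
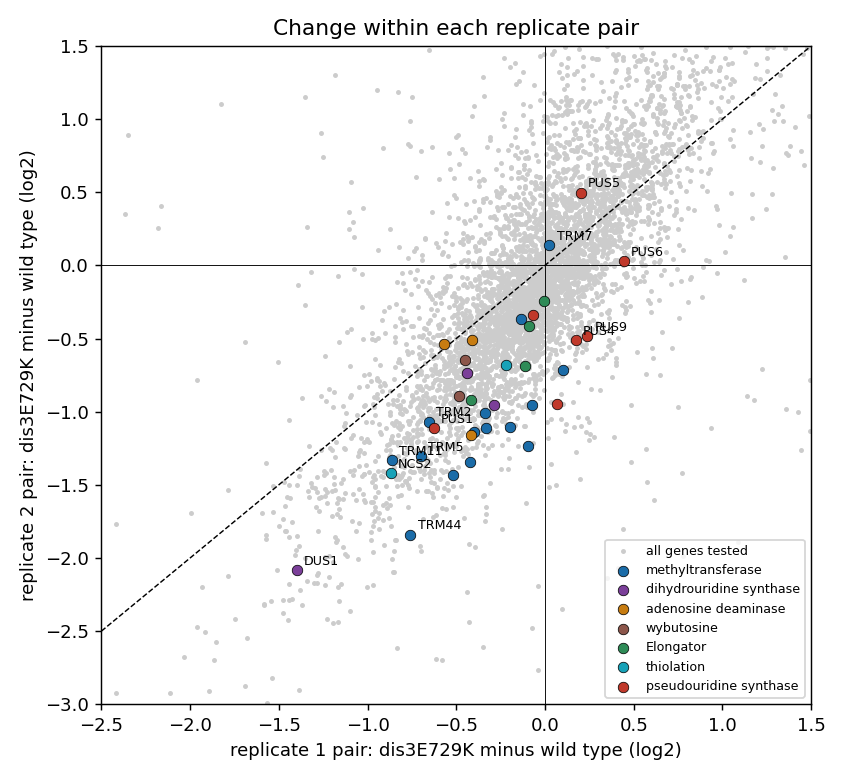
log2 change, dis3E729K minus wild type, between the replicate 1 arrays (horizontal) and between the replicate 2 arrays (vertical); grey points are all genes tested, of which 425 lie outside the axes, coloured points the 36 modification genes by class, and the dashed line marks equal change. DUS1 lies lowest at -1.40 and -2.09, and 33 of the 36 coloured points lie below the dashed line. Of all 5449 genes, 3112 had the lower change in the replicate 2 pair.

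The size of the change was not tied to brightness: across the 36 genes the log2 change and the mean intensity had r = -0.045 and rho = -0.14. Over all genes these were -0.019 and -0.01. With gene length the change had r = -0.27 and rho = -0.42, as a description across the 36 genes. The relation to length was not computed over all genes, so it cannot be called particular to the 36. All 36 genes were above background on every array, the lowest value being 8.06, that of DUS1 in dis3E729K replicate 2.

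Genes of tRNA modification that carry other names were also examined. The lists, for wobble uridine modification, for threonylcarbamoyladenosine and for other modifying enzymes, held 39 genes of which 38 were measured. Of these 5 fell and 0 rose, 13.2% against 8.15% of all genes. At an unadjusted p under 0.05, 13 were lower and 0 higher, 34.2% against 22.6% of all genes. The median change was -0.30. With the replicate block SAP185 and MTO1 fell, 5.26% of the 38 against 2.64% of all genes. Fits without dis3E729K replicate 2 or without either wild-type array lost the calls of these genes, and also most calls over all genes.

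Among the enzymes of other names, 4 of 17 fell, 23.5% against 8.15% of all genes, with a median of -0.52. GCD10 and GCD14 encode the methyltransferase for an adenosine of the T loop; in yeast, initiator tRNA that lacks this mark is a classic substrate of TRAMP and the exosome. GCD10 read 10.14 and 9.96 in dis3E729K and 10.85 and 11.11 in wild type and fell by 0.93 ± 0.16 (adjusted p = 0.0412). GCD14 read 9.72 and 9.37 in dis3E729K and 10.33 and 10.40 in wild type and fell by 0.82 ± 0.17 (adjusted p = 0.0479). Both subunits were thus lower without overlap, with an adjusted p of 0.0706 and 0.0829 with the replicate block. MTO1, of the mitochondrial wobble uridine pathway, read 8.37 and 7.99 in dis3E729K and 9.44 and 9.60 in wild type and fell by 1.34 ± 0.18 (2.52-fold, adjusted p = 0.0346; 0.0495 with the replicate block). Its partner MSS1 had a change of 0.34 ± 0.18, and SLM3, which thiolates the same uridine, one of 0.10 ± 0.19.

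Threonylcarbamoyladenosine stands beside the anticodon of tRNAs that read codons starting with A. Of its 9 genes 0 passed limma's test, where 8.15% of all genes fell, and the median was -0.30. At an unadjusted p under 0.05, 3 were lower and 0 higher, 33.3% lower against 22.6% of all genes. PCC1 and GON7, subunits of the KEOPS complex that completes the base, had changes of -0.91 ± 0.21 (adjusted p = 0.0560) and -0.60 ± 0.18. SUA5, which makes the activated intermediate, had a change of -0.90 ± 0.22 (adjusted p = 0.0614). KAE1, the catalytic subunit of KEOPS, had a change of -0.30 ± 0.12, and BUD32, its kinase, one of -0.023 ± 0.137. QRI7, the mitochondrial counterpart of KAE1, had one of 0.078 ± 0.123.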

How the data were processed

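The deposited values are log2 intensities of 10928 probe sets on 4 arrays. The submitters' processing notes name RMA, Affymetrix Expression Console and Transcriptome Analysis Console, without versions. RMA subtracts background, quantile-normalizes and summarises probes on the log2 scale, so a shift of all transcripts cannot be seen. Through the platform annotation and the RefSeq table (assembly R64), 5498 probe sets matched exactly 1 yeast gene; for 47 genes with several, the one with the highest mean was kept, which left 5449. Genes were compared with limma 3.58.1 (R 4.3.3), lmFit and eBayes, 2 residual and 2.18 prior degrees of freedom, Benjamini-Hochberg over the 5449 genes. Changes are dis3E729K minus wild type. Nothing in the labels says how separate the cultures of a genotype were beyond their being biological replicates, so p-values measure the spread between these arrays, whose number limits the precision. The background level, 4.06, is the 95th percentile of signal from sequences of the other yeast that the array also covers. In simulated data sets of 5449 genes for this comparison, a planted log2 shift of 0.5 was detected in 0% of cases. A shift of 1 was detected in 15.1% and a shift of 2 in 78.3%. Genes without a shift passed in 0.0857% of cases. Under a Benjamini-Hochberg cut-off such rates depend on how many genes change. Whether they carry over to the real arrays, where 444 genes fell and 420 rose, was not tested.

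The 36 genes and the lists were chosen with earlier results of these data known. All 36 are named. Array values are given for the 6 that passed and the next 6 by moderated t, and for others where array order mattered. Of the other lists, genes that passed or up to 3 by moderated t were named. UBA4, TUM1, NFS1, IKI1, SAP190, SIT4, KTI12, ATS1, HRR25, RTT10, MSS1 and SLM3 were added with their values known. So were KAE1, BUD32, QRI7, SMM1, DEG1, RIB2, SEN2, PAP2, MTR4, AIR2, RAT1, XRN1 and MET22. The promoter motif search of the design was not run, as no sequence was used here. Python 3.11.15, pandas 2.3.3 and matplotlib 3.10.9 made tables and plots. Alternatives changed the replicate block, the variance model, the normalization, filters, probe set choice, the threshold and the arrays.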

Additional observations from a re-analysis of the deposited data

How the results depend on the processing

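The count of 6 modification genes that fell was 1 with the replicate block, 0 without variance moderation and 18 at an adjusted p under 0.10, and ranged from 0 to 7 as each array was left out. Over all genes, 444 fell, against 144 with the block, 2 without moderation, 1069 at 0.10 and 0 to 351 as each array was left out, so a count of 0 there says little about the 36 genes. At an unadjusted p under 0.05, 7 of the 36 were lower without moderation in limma's fit. Of the other modification lists, 5 genes fell; 2 with the replicate block, 0 without moderation in limma (6 at an unadjusted p under 0.05), 12 at 0.10 and 0 to 7 as arrays were left out. The counts stayed within 1.5 times under the intensity trend, both normalizations over the tested genes, and the changes of filter and probe sets. The median change of the 36 genes lay between -0.80 and -0.39 over the arrays left out. The count of 29 genes with both mutant arrays below both wild-type arrays was 28 under median centring; leaving out an array cannot lower it. Among the 36 genes, signs turned only for TRM7 (-0.33 to 0.49 over the arrays left out), PUS9 (-0.32 to 0.067), PUS4 (-0.43 to 0.091) and TRM9 (-0.63 to 0.012), none of which had passed; the cause was not tested. Replicate numbers are given in the titles only, but the mating type genes split by them in both genotypes. Across all genes the deviations of mutant and wild-type replicates correlated at r = 0.084 and rho = -0.24. The main fit used no pairing and so left this known difference in the spread. With the replicate block 2.78% of the 36 genes fell, against 2.64% of all genes. With 2 arrays a genotype, leaving 1 out gives the lone array the spread of the other genotype.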

Other observations

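Genes that act on tRNA before and after modification were also measured. Of 24 genes for tRNA end processing, splicing and export 2 fell and 0 rose, 8.33%, against 8.15% of all genes, with a median change of -0.30. SEN34, a catalytic subunit of the tRNA splicing endonuclease, read 9.02 and 8.63 in dis3E729K and 10.25 and 10.26 in wild type and fell by 1.43 ± 0.18 (SE; 2.69-fold, limma adjusted p = 0.0340; 0.0435 with the replicate block). SEN2, the other catalytic subunit, had a change of -0.33 ± 0.12 and did not pass. TRZ1, which cuts the trailer from the precursor, read 9.85 and 9.19 in dis3E729K and 10.77 and 10.83 in wild type and fell by 1.28 ± 0.26 (adjusted p = 0.0470; 0.0595 with the replicate block).

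MAF1, the repressor of RNA polymerase III, which transcribes the tRNA genes, was 1 gene of the 11 of tRNA surveillance, decay and supply that rose, where 7.71% of all genes did. It read 10.65 and 10.91 in dis3E729K and 9.88 and 9.86 in wild type, with no overlap. It rose by 0.91 ± 0.15 (1.87-fold, adjusted p = 0.0384; 0.0654 with the replicate block). In the same list TRF5, a poly(A) polymerase of TRAMP, fell by 2.28 ± 0.27 (adjusted p = 0.0336) and AIR1, its RNA-binding partner, fell by 2.28 ± 0.45 (adjusted p = 0.0455). These 2 were 18.2% of the 11, where 8.15% of all genes fell. PAP2, the other poly(A) polymerase of TRAMP, had a change of -0.47 ± 0.21 and did not pass (adjusted p = 0.169). MTR4, also of TRAMP, had one of -0.78 ± 0.22 and did not pass (adjusted p = 0.105). AIR2, the paralogue of AIR1, had a change of 0.57 ± 0.13, with both mutant arrays above both wild-type arrays, and did not pass (adjusted p = 0.0532). The call of AIR1 was lost under quantile normalization over the tested genes (adjusted p = 0.0539). In limma's fits without dis3E729K replicate 2 or without wild type replicate 2 the calls of SEN34, TRZ1, MAF1, AIR1 and TRF5 were lost, and without wild type replicate 1 those of the same genes other than TRF5. RAT1 and XRN1, the exonucleases of rapid tRNA decay, had changes of -0.48 ± 0.20 and -0.079 ± 0.122 and did not pass. MET22, whose loss slows that decay, had a change of -0.17 ± 0.16.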
